A study of Mus musculus with 12 samples.

Results

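Megakaryocytes are the large bone marrow cells that shed platelets. They carry surface receptors for von Willebrand factor and fibrinogen, and they pack chemokines into alpha granules that platelets release when they are activated. Their genes are switched on by GATA and ETS family transcription factors. Marrow grown into macrophages can still hold cells or RNA of other lineages. The transcripts of 8 genes of this kind were followed: Gp5, Gp9 and Gp1bb, which encode subunits of the glycoprotein Ib-IX-V receptor for von Willebrand factor, Itga2b, the alpha IIb integrin (CD41) of the fibrinogen receptor, Ly6g6f, an immunoglobulin-like membrane protein of platelets, Pf4 and Ppbp, alpha granule chemokines, and Rbpms2, an RNA-binding protein. They were chosen by symbol, with the levels measured in these libraries known, and each matched 1 row of the 54446 gene identifiers in the count table. Because the members were selected on measured values, their levels and folds are given as a description with no test.

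The RNA was sequenced from mouse macrophages that had been grown from femur and tibia marrow in RPMI 1640 medium with the growth factor M-CSF. All mice carried loxP-flanked Nlrc3 (Nlrc3 fl/fl), a gene for a NOD-like receptor. Wild type (WT) mice were LysM-Cre- and knockout (KO) mice were LysM-Cre+, so that deletion is driven in LysM-expressing myeloid cells and other marrow cells keep the gene. Cells of each genotype stayed in medium or received LPS, a bacterial cell wall component that activates Toll-like receptor 4, for 12 h, which gives 4 groups of 3 libraries. Mouse age is not among the labels used here. The labels leave unsaid whether replicates are different animals or cultures. The p-values therefore speak of the scatter among these libraries, part of which can be technical.

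Library totals lay between 13082947 and 20960505 counts, and mitochondrial genes took 0.654% to 1.46% of them. Levels are in counts per 1000000 of the library total (CPM), and 3 counts correspond to 0.143 to 0.229 CPM, a limit that covers counting error only. The labels and the measured transcripts went apart in the KO arm. Nlrc3 lay at 9.89 to 13.6 CPM in WT medium, 0.796 to 4.39 in WT LPS, 0.850 to 0.996 in the libraries labelled KO medium and 6.04 to 15.6 in those labelled KO LPS, so each labelled KO LPS library had more Nlrc3 than any WT LPS library. Nos2, the LPS-inducible nitric oxide synthase, lay at 831 to 2704 CPM in WT LPS and at 1148 to 2717 in the libraries labelled KO medium, against 3.90 to 8.35 in WT medium and 0.689 to 5.43 in those labelled KO LPS. The cytokine genes Il6 and Il1b were placed the same way, with Il6 at 105 to 237 CPM in labelled KO medium and 0.689 to 1.31 in labelled KO LPS, and Il1b at 2124 to 3138 and 82.9 to 89.8. Every direction below that rests on a KO label is therefore a direction between libraries with that label. The macrophage markers Csf1r (759 to 4246 CPM) and Adgre1 (356 to 1808 CPM) were present in all 12 libraries. Libraries labelled KO LPS 2 and KO LPS 3 stood apart in the genes described here, and the main results that rest on them are given with and without them.

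The stretches just before the transcription start are shown for 4 members because GATA factors and the ETS factor PU.1 bind known short motifs in blood cell promoters. RefSeq (GRCm38.p6, the build of the files) held a promoter for 8 of 8 members. The windows are the 150 bases before the start, 5′ to 3′ on the gene's strand: Ppbp at chr5:90768368-90768517 (+), Pf4 at chr5:90772285-90772434 (+), Gp9 at chr6:87777920-87778069 (+) and Gp5 at chr16:30310782-30310931 (-). Capitals mark every match, on either strand, to the GATA motif (AGATAA, its variant TGATAA that begins with T, or the forms AGATAG and also TGATAG that end in G) or to the PU.1 motif (GAGGAA). The same windows of Itga2b, Rbpms2, Ly6g6f and Gp1bb overlap annotated exons and are not printed.
Ppbp: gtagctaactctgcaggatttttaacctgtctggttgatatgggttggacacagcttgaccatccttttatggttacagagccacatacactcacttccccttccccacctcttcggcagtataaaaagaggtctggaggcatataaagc
Pf4: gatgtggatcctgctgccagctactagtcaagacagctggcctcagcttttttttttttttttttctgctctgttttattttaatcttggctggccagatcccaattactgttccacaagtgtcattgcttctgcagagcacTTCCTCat
Gp9: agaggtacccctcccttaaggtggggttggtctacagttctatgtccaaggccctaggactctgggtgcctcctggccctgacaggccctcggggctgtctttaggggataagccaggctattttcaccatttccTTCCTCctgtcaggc
Gp5: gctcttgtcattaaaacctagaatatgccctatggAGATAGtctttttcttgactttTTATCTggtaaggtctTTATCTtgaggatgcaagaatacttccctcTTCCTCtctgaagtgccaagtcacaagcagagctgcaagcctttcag

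Gp5 held 3 GATA matches, beginning 115, 93 and 77 bases before the start, and a PU.1 match at 47. Pf4 had a PU.1 match at 8 bases and Gp9 at 15, and Ppbp had no match to either motif in this window. Over the 250 bases before the start, 3 of 8 members (Gp5, Ly6g6f and Gp1bb) held the GATA motif, which 26.5% of 32851 RefSeq promoters hold. The PU.1 motif occurred in 5 of 8 (Gp5, Gp9, Itga2b, Pf4 and Ly6g6f), against 23.25% of all promoters. No GATA match shared a base with a PU.1 match in these promoters. A match is a run of letters and was not tested for binding.

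Members of the von Willebrand factor receptor came first. Gp5 (ENSMUSG00000047953, chr16:30307685-30310779, minus strand, mm10) lay at 7.28, 3.13 and 7.98 CPM in WT medium, 3.85, 5.44 and 5.53 in WT LPS, 4.92, 3.19 and 8.49 in labelled KO medium, and 10.2, 37.0 and 56.2 in labelled KO LPS (replicates 1, 2 and 3 in each). Labelled KO LPS 2 and 3 were 3.64 and 5.54 times the highest of the other 10 libraries, which is labelled KO LPS 1. In CPM the labelled KO LPS group did not overlap any other group, but when library sizes are scaled by trimmed mean factors (TMM) its lowest library, at 8.43, fell below the highest of labelled KO medium, at 10.7. The group means were 6.13 ± 2.62 CPM (SD, n = 3) in WT medium, 4.94 ± 0.947 in WT LPS, 5.54 ± 2.70 in labelled KO medium and 34.5 ± 23.1 in labelled KO LPS.

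Gp9 (ENSMUSG00000030054, chr6:87778072-87779768, plus strand), which binds the glycoprotein Ib subunits and is needed for the receptor to reach the surface, gave 3.48, 3.67 and 6.03 CPM in WT medium and 3.12, 4.44 and 6.93 in WT LPS. It gave 4.43, 2.62 and 6.00 in labelled KO medium and 9.03, 21.8 and 29.2 in labelled KO LPS. All 3 labelled KO LPS libraries were above the other 9 in CPM, and replicates 2 and 3 were 2.41 and 3.24 times replicate 1. After TMM scaling, the lowest labelled KO LPS library (7.49) lay below the highest of WT LPS (8.47) and of labelled KO medium (7.58). Group means were 4.40 ± 1.42, 4.83 ± 1.94 and 4.35 ± 1.69 CPM in WT medium, WT LPS and labelled KO medium, which differ by less than their SDs, and 20.0 ± 10.2 in labelled KO LPS (SD, n = 3 each).

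Gp1bb (ENSMUSG00000050761, chr16:18620317-18622403, minus strand), the beta subunit of glycoprotein Ib, had 10 counts in all 12 libraries together. There were 4 in WT medium 1, 2 in WT LPS 2, 1, 1 and 2 in labelled KO LPS 1, 2 and 3, and 0 in the other 7 libraries. Annotated transcripts of Sept5 on the same strand cover 91.1% of its exonic bases, and those of Sept5 and Gm49601 together 92.9%, so reads from it may have been assigned elsewhere or to no gene and its level is uncertain. It did not pass the filter on low counts, the only member of 8 that did not, and no fold is given. Sept5 itself lay between 0.277 and 4.14 CPM, highest in labelled KO LPS 3 (4.14) and 2 (2.78).

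The integrin gene Itga2b (ENSMUSG00000034664, chr11:102453297-102470122, minus strand) was measured at 38.2, 19.6 and 44.0 CPM in WT medium, 30.3, 46.5 and 42.7 in WT LPS, 32.5, 18.7 and 51.5 in labelled KO medium, and 49.1, 183.9 and 252 in labelled KO LPS. Replicates 2 and 3 of the last group were 3.57 and 4.90 times the highest other library, labelled KO medium 3. Replicate 1 lay inside the range of labelled KO medium, so these groups overlapped. The gene Gm23563 lies within an intron of Itga2b and shares no exonic base with it. Group means were 33.9 ± 12.8, 39.8 ± 8.46, 34.2 ± 16.5 and 161.7 ± 103.3 CPM (SD, n = 3) in WT medium, WT LPS, labelled KO medium and labelled KO LPS.

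Per length, on the deposited FPKM scale, Itga2b stood at 0.592 to 1.59 times Itgb3, its beta 3 partner in the fibrinogen receptor, with a median of 0.924 over the 12 libraries. That ratio was 0.859 and 0.849 in labelled KO LPS 2 and 3, near the middle of the range, while both genes were at their highest there. Macrophages and osteoclasts also transcribe Itgb3, which pairs with the alpha V integrin in those cells.

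Ly6g6f (ENSMUSG00000034923, chr17:35080480-35085610, minus strand) was scarce, at 5 to 173 counts. It gave 1.08, 0.382 and 1.52 CPM in WT medium, 0.664, 1.15 and 1.16 in WT LPS, 0.719, 0.496 and 0.876 in labelled KO medium, and 1.64, 7.64 and 9.17 in labelled KO LPS. Labelled KO LPS 2 and 3 were 4.66 and 5.59 times the next library, labelled KO LPS 1, which itself was barely above WT medium 3. After TMM scaling labelled KO LPS 1 (1.36) lay below the highest WT LPS library (1.41).

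Rbpms2 (ENSMUSG00000032387, chr9:65629648-65660528, plus strand), a member of a family that binds RNA through a recognition motif and is also known from smooth muscle and heart, gave 1.69, 1.38 and 1.95 CPM in WT medium and 1.39, 2.10 and 2.92 in WT LPS. It gave 1.11, 0.850 and 3.24 in labelled KO medium and 3.60, 9.93 and 13.9 in labelled KO LPS. The order was the same, with labelled KO LPS 3 first and 2 second, at 3.86 and 2.76 times labelled KO LPS 1. TMM scaling put the lowest labelled KO LPS library (2.99) below the highest of WT LPS (3.57) and labelled KO medium (4.09).

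Pf4 and Ppbp are neighbours on chromosome 5, 2371 bases apart on the same strand, and encode platelet factor 4 (Cxcl4) and the precursor of Cxcl7. Both proteins sit in alpha granules, and Pf4 is also transcribed by some macrophages. Ppbp (ENSMUSG00000029372, chr5:90768518-90770063, plus strand) was at 44.2, 25.0 and 58.7 CPM in WT medium, 18.2, 39.2 and 50.7 in WT LPS, 28.6, 17.1 and 70.0 in labelled KO medium, and 68.2, 126 and 145.7 in labelled KO LPS. Labelled KO LPS 2 and 3 were again highest, at 1.80 and 2.08 times the next library, labelled KO medium 3, which lay above labelled KO LPS 1. Its group means were 42.6 ± 16.9, 36.0 ± 16.5, 38.6 ± 27.8 and 113 ± 40.3 CPM (SD, n = 3) in the same order.

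Pf4 (ENSMUSG00000029373, chr5:90772435-90773383, plus strand) followed another order. Its CPM were 63.9, 406 and 246 in WT medium, 91.3, 152 and 391 in WT LPS, 93.9, 223 and 397 in labelled KO medium, and 658, 192 and 313 in labelled KO LPS. Labelled KO LPS 1, the library of that group lowest in the other members, was highest in Pf4, and the 4 groups overlapped. Group means of 239 ± 171, 211 ± 158, 238 ± 152 and 388 ± 242 CPM (SD, n = 3) did not differ beyond their spread. Within libraries, the FPKM of Ppbp was 0.041 to 0.461 of that of Pf4, and labelled KO LPS 2 and 3 stood at 0.437 and 0.310 against 0.069 in labelled KO LPS 1.

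**Figure D1:**
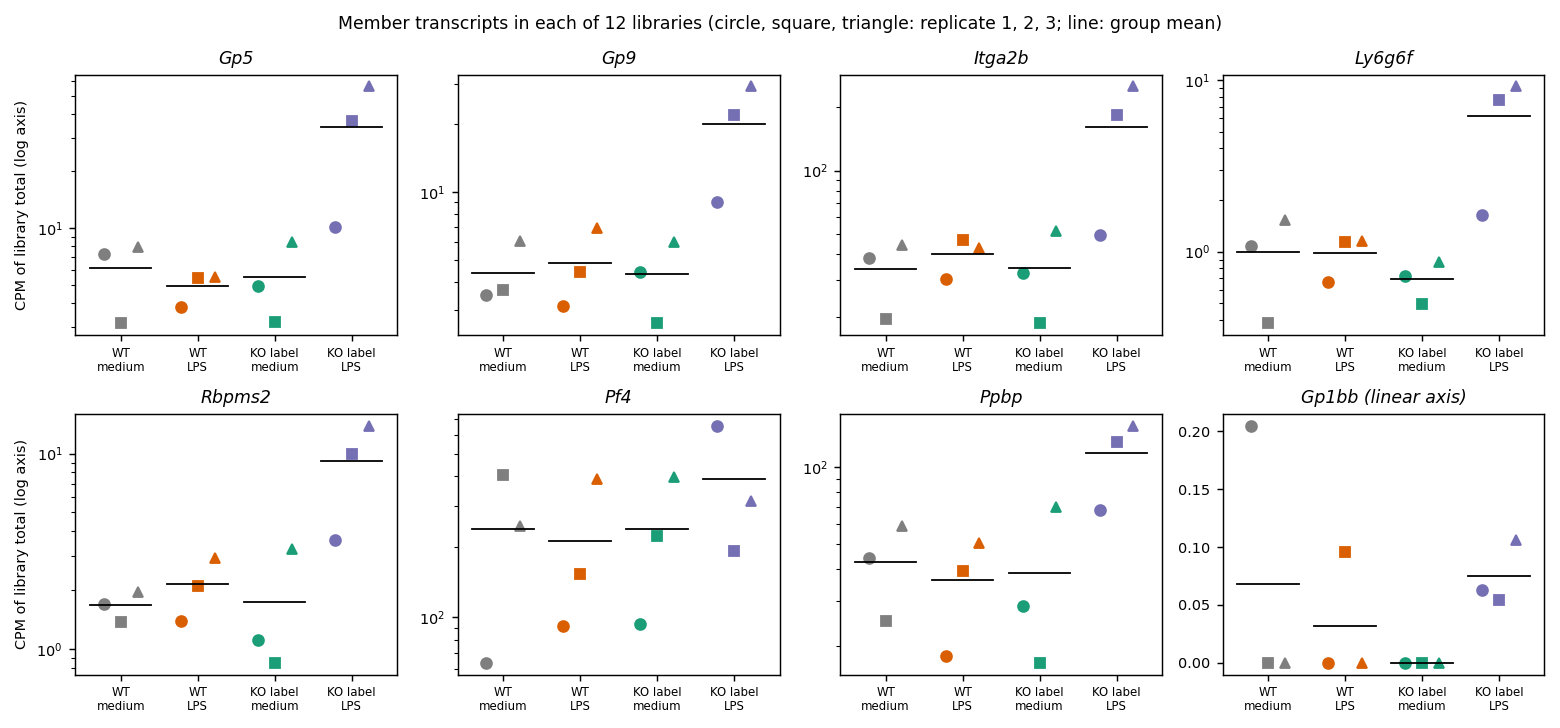
Each panel plots 1 member's level in CPM of the library total (log axis, linear for Gp1bb) in the 12 libraries, by group; circles, squares and triangles are replicates 1, 2 and 3 and lines are group means. In 6 panels the square and triangle of labelled KO LPS lie above all other points, while in Pf4 the highest point is labelled KO LPS 1 at 658 CPM.

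Per length, Pf4 was the most abundant member, with a mean of 331 FPKM in WT medium and 538 in labelled KO LPS, followed by Ppbp (39.4 and 104.7 FPKM). Itga2b, Gp9 and Gp5 came next, at 6.22, 4.99 and 2.79 FPKM in WT medium and 29.6, 22.7 and 15.7 in labelled KO LPS. Ly6g6f and Rbpms2 were lowest of those that passed the filter, at 0.871 and 0.667 FPKM in WT medium and 5.39 and 3.65 in labelled KO LPS. These are levels, and in a bulk culture fewer cells of a type and less RNA per cell cannot be told apart.

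Folds between groups were taken from a model over all 12 libraries with TMM scaling (edgeR), and are given as log2 folds ± SE. Under LPS, labelled KO against WT, they were 2.29 ± 0.54 for Gp5, 2.13 ± 0.60 for Ly6g6f, 1.58 ± 0.55 for Rbpms2, 1.53 ± 0.46 for Gp9, 1.52 ± 0.50 for Itga2b, 1.15 ± 0.49 for Ppbp and 0.36 ± 0.76 for Pf4. Between LPS and medium in the libraries labelled KO, the folds were 2.39 ± 0.62 for Ly6g6f, 1.91 ± 0.53 for Gp5, 1.69 ± 0.56 for Rbpms2, 1.51 ± 0.50 for Itga2b, 1.47 ± 0.46 for Gp9, 0.85 ± 0.49 for Ppbp and 0.01 ± 0.76 for Pf4. Both comparisons use the same labelled KO LPS libraries.

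Without labelled KO LPS 2 and 3, the remaining library of that group is assumed to vary like the other groups. The log2 folds under LPS then were 0.56 for Gp5, 0.41 for Gp9, -0.17 for Itga2b, 0.26 for Ly6g6f, 0.27 for Rbpms2, 0.45 for Ppbp and 1.14 for Pf4. For LPS against medium in the labelled KO libraries they were 0.19 for Gp5, 0.35 for Gp9, -0.17 for Itga2b, 0.52 for Ly6g6f, 0.38 for Rbpms2, 0.15 for Ppbp and 0.79 for Pf4. The direction of Itga2b turned in both, and the value of Pf4 rose while the other 6 fell. The library that remains is the one richest in Pf4.

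In the comparisons that do not involve the labelled KO LPS libraries, the members lay closer together. The log2 folds of LPS against medium in WT ran from 0.32 ± 0.53 (Gp5) to 0.95 ± 0.56 (Rbpms2). Those of labelled KO against WT in medium ran from 0.35 for Ly6g6f to 0.86 for Itga2b. Scaling by library size alone took the all-gene median from -0.06 to -0.64 in the first and from -0.02 to -0.85 in the second, and turned several of these folds, for example Gp5 to -0.31 and -0.15 and Ppbp to -0.24 and -0.14. Against the medians of all genes under the same scaling, those values lie higher in both comparisons.

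The 2 diagonal comparisons set libraries of like Nos2 level side by side. Labelled KO medium against WT LPS gave log2 folds from -0.26 for Ly6g6f to 0.38 for Gp5, while labelled KO LPS against WT medium gave 2.74 for Ly6g6f, 2.61 for Gp5, 2.53 for Rbpms2, 2.37 for Itga2b, 2.28 for Gp9, 1.53 for Ppbp and 0.71 for Pf4. Without labelled KO LPS 2 and 3, that last comparison gave 0.87 for Ly6g6f, 0.87 for Gp5, 1.22 for Rbpms2, 0.68 for Itga2b, 1.16 for Gp9, 0.82 for Ppbp and 1.49 for Pf4. No gene at all passed in either, that is 0.0% and 0.0%, by edgeR (quasi-likelihood, Benjamini-Hochberg); 270 and 1135 genes had an unadjusted p under 0.05, and DESeq2 called 0 and 40 (36 higher and 4 lower). For the difference between the LPS effects of the labelled genotypes, the members' values ran from -0.35 for Pf4 to 1.78 for Ly6g6f. Without labelled KO LPS 2 and 3 they ran from -1.01 for Itga2b to 0.44 for Pf4, and those of the other 5 lay between -0.56 (Rbpms2) and -0.08 (Ly6g6f), so 6 of 7 were below 0.

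**Figure D2:**
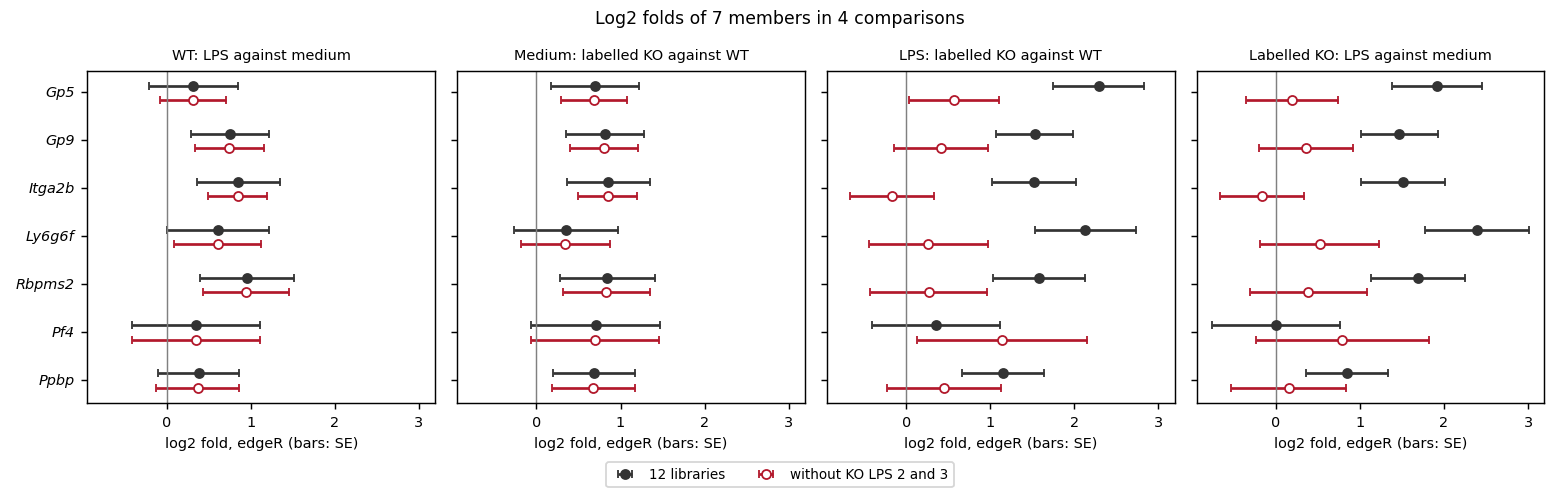
Log2 folds of the 7 members that passed the filter in 4 comparisons, with bars of 1 SE; filled points use 12 libraries and open points leave out the libraries labelled KO LPS 2 and 3. In the right-hand panels Gp5 moves from 2.29 to 0.56 and Itga2b from 1.52 to -0.17 under LPS, while the left-hand panels change little.

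Both labelled KO LPS 2 and 3 were above the other 10 libraries in 6 of 8 members (75.0%), which is the pattern that marks them here, and in 16.3% of all 13773 genes kept by the filter. After TMM scaling the shares were 75.0% and 14.9%. The order of the remaining 10 libraries was also shared to some degree. Over 12 libraries, the Pearson correlation of log2(CPM + 1) between the 6 members other than Pf4 and Gp1bb ran from 0.865 to 0.981 over 15 pairs, with a median of 0.958. Without the 2 libraries that stand apart it ran from 0.715 to 0.928, with a median of 0.852. Pf4 correlated with the other 6 at 0.142 to 0.367 over 12 libraries and 0.142 to 0.655 over 10. These correlations describe libraries that share groups, scaling and depth.

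**Figure D3:**
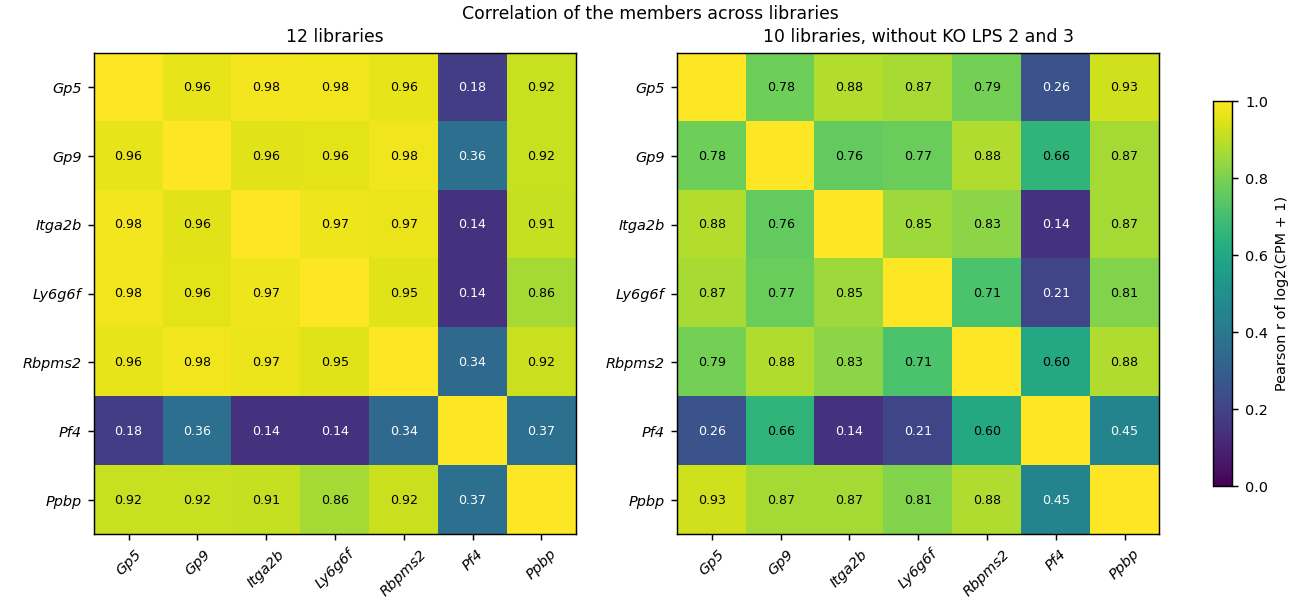
Pearson correlation of log2(CPM + 1) between 7 members over all 12 libraries (left) and over the 10 without labelled KO LPS 2 and 3 (right). The Pf4 row stands out, at 0.142 to 0.367 on the left, while the other pairs are at 0.865 or above.

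Among all genes kept by the filter, those with the most similar pattern over the 12 libraries, by the same correlation, differed by member. The values lean on labelled KO LPS 2 and 3, and the nearest genes were not sought without them. For Gp5 they were Tmem163 (0.982), Itga2b (0.981) and Tie1 (0.981), and for Itga2b they were Gp5 (0.981), Gata1 (0.978) and Clu (0.977). Tmem163, for example, was at 1.965 and 3.34 CPM in labelled KO LPS 2 and 3 and at 0 to 0.821 in the other libraries. For Gp9 they were Rbpms2 (0.978), Gp5 (0.962) and Proser2 (0.960). Ly6g6f was nearest to Siglech (0.980), Gp5 (0.980) and Gata1 (0.975), and Rbpms2 to Gp9 (0.978), Clu (0.973) and Tmem40 (0.971). For Ppbp the nearest were Adgrg3 (0.967), Cd177 (0.952) and Padi4 (0.949), of which Cd177 and Padi4 are known from neutrophils. Pf4 had lower values throughout, with Gm10052 (0.848), Cdc25c (0.841) and Zwint (0.796); Cdc25c and Zwint are cell division genes. The 100 nearest genes held 4 or 5 other members for each of the 6, and none for Pf4. These 6 were chosen with their levels known and are all highest in labelled KO LPS 2 and 3. That pattern is held by 16.3% of all genes kept, so the counts are a description only.

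The wider lineage was examined with a list of 30 megakaryocyte and platelet genes that are no members, all of which passed the filter. They were tested in edgeR by quasi-likelihood, with p-values adjusted (Benjamini-Hochberg) over all 13773 genes. Like the members, the list was written with earlier results of these data known. Under LPS, 6 of 30 were higher and none lower in labelled KO than in WT libraries, with a median log2 fold of 1.29 against 0.06 for all genes. An adjusted p under 0.05, in either direction, was reached by 24.1% of all genes in that comparison, a larger share than 6 of 30. By direction, 1435 of the 13773 were higher and 1889 lower. Between LPS and medium in the libraries labelled KO, 10 were higher and none lower, with a median of 1.45 against 0.04, where 30.4% of all genes were called, a share close to 10 of 30. There, 2082 of the 13773 were higher and 2104 lower. Without labelled KO LPS 2 and 3, which leaves 1 library in that group, the list's medians were -0.22 and -0.26. The medians of all genes were then -0.05 and -0.04. A single library moved the counts of list genes called. Without labelled KO LPS 1 they were 17 and 17, with 1859 higher and 2234 lower, and 2602 and 2493, of all 14257 genes. Without WT medium 1 the first was 3, with 1193 higher and 1751 lower of all 14220. Without labelled KO medium 1 the second was 3, with 1125 higher and 1588 lower of all 14311.

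By role, under LPS, 3 of 12 receptors, 1 of 6 cytoskeleton and signalling genes, 1 of 8 transcription factors and 1 of 4 granule genes were higher in the libraries labelled KO. Between LPS and medium in the labelled KO libraries the counts were 4 of 12, 1 of 6, 3 of 8 and 2 of 4. Over all genes, 24.1% and 30.4% were called in these comparisons, in either direction. No role was tested against those shares.

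Vwf, the gene for von Willebrand factor, which megakaryocytes store in alpha granules and endothelial cells also make, lay at 63.7, 32.1 and 56.1 CPM in WT medium, 15.9, 25.6 and 12.2 in WT LPS, 13.8, 15.7 and 22.7 in labelled KO medium, and 36.4, 155 and 176 in labelled KO LPS. All labelled KO LPS libraries were above all of WT LPS and labelled KO medium. Under LPS the log2 fold of Vwf in labelled KO over WT was 2.29 ± 0.48 (higher, edgeR, adjusted p = 0.00577). It was higher in labelled KO LPS than in labelled KO medium by 2.08 ± 0.48 (edgeR, adjusted p = 0.00723). Treml1, a receptor of platelet alpha granules, was higher by 1.70 ± 0.40 (edgeR, adjusted p = 0.0095) and 1.86 ± 0.40 (adjusted p = 0.00509) in the same comparisons. Its labelled KO LPS libraries were at 9.66, 24.5 and 31.0 CPM, against at most 5.41 in WT LPS and 4.65 in labelled KO medium, and 7.17, 5.58 and 8.89 in WT medium.

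Rasgrp2, the exchange factor that turns on Rap1 in platelets, stood at 13.8, 65.4 and 81.8 CPM in labelled KO LPS, against 4.18 to 9.21 in WT LPS and 5.53 to 11.0 in labelled KO medium. In WT medium it stood at 20.8, 11.2 and 24.4 CPM, above labelled KO LPS 1 in replicates 1 and 3. Under LPS it was higher in labelled KO than in WT libraries by 2.35 ± 0.55 (edgeR, adjusted p = 0.00967). It was higher in labelled KO LPS than in labelled KO medium by 2.14 ± 0.55 (edgeR, adjusted p = 0.0124). That second call was lost without labelled KO medium 1 (adjusted p = 0.0535) or labelled KO LPS 3 (0.0552), over a range of 0.000226 to 0.874 in 19 alternatives. Nbeal2, a protein needed to form alpha granules, was higher in labelled KO LPS than in labelled KO medium by 3.20 ± 0.64 (edgeR, adjusted p = 0.00333). Its means there were 82.5 and 5.42 CPM. Its level was 80.9, 29.4 and 64.0 CPM in WT medium and 7.63, 47.2 and 14.0 in WT LPS.

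Itgb3 was higher by 1.82 ± 0.60 in labelled KO than in WT libraries under LPS (edgeR, adjusted p = 0.0450). It was at 48.3, 232 and 321 CPM in labelled KO LPS against 20.7, 63.4 and 39.8 in WT LPS, and the groups overlapped. WT medium was at 69.8, 35.1 and 71.3 CPM. This call was lost in 9 of 12 fits that leave out 1 library, with adjusted p from 0.00507 to 0.180. The libraries are WT medium 1 and 3, each of the 3 WT LPS, labelled KO medium 1 and 2, and labelled KO LPS 2 and 3. Without labelled KO LPS 2 and 3 together, its log2 fold was -0.20 ± 0.62. The call of Gata1 under LPS was as fragile, lost in 10 of those 12 fits.

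Other defining genes of the lineage showed the same library order. Gp1ba, the alpha subunit of glycoprotein Ib that binds von Willebrand factor, was at 5.87, 52.1 and 88.3 CPM in labelled KO LPS and at most 10.7 in the other groups. Gata1, a transcription factor of megakaryocytes, red cells and mast cells, was at 2.84, 11.4 and 20.6 CPM, against at most 3.66. In both genes labelled KO LPS 1 lay inside the range of the other groups.

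Tubb1, the platelet beta 1 tubulin, was at 0.694, 11.3 and 21.4 CPM in labelled KO LPS and at most 3.05 elsewhere. The collagen receptor gene Gp6 was at 2.27, 10.9 and 12.4 CPM, against at most 6.07. Gfi1b, a transcriptional repressor that megakaryocytes and red cell precursors need, was at 1.33, 8.19 and 10.7 CPM, against at most 3.34. None of these 3 passed the test in any of the 7 comparisons. In all, 23 of 30 list genes (76.7%) had both labelled KO LPS 2 and 3 above the other 10 libraries, against 16.3% of all genes kept. After TMM scaling 22 of 30 did, against 14.9%. The list was written with earlier results of these data known, so these counts are a description.

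**Figure D4:**
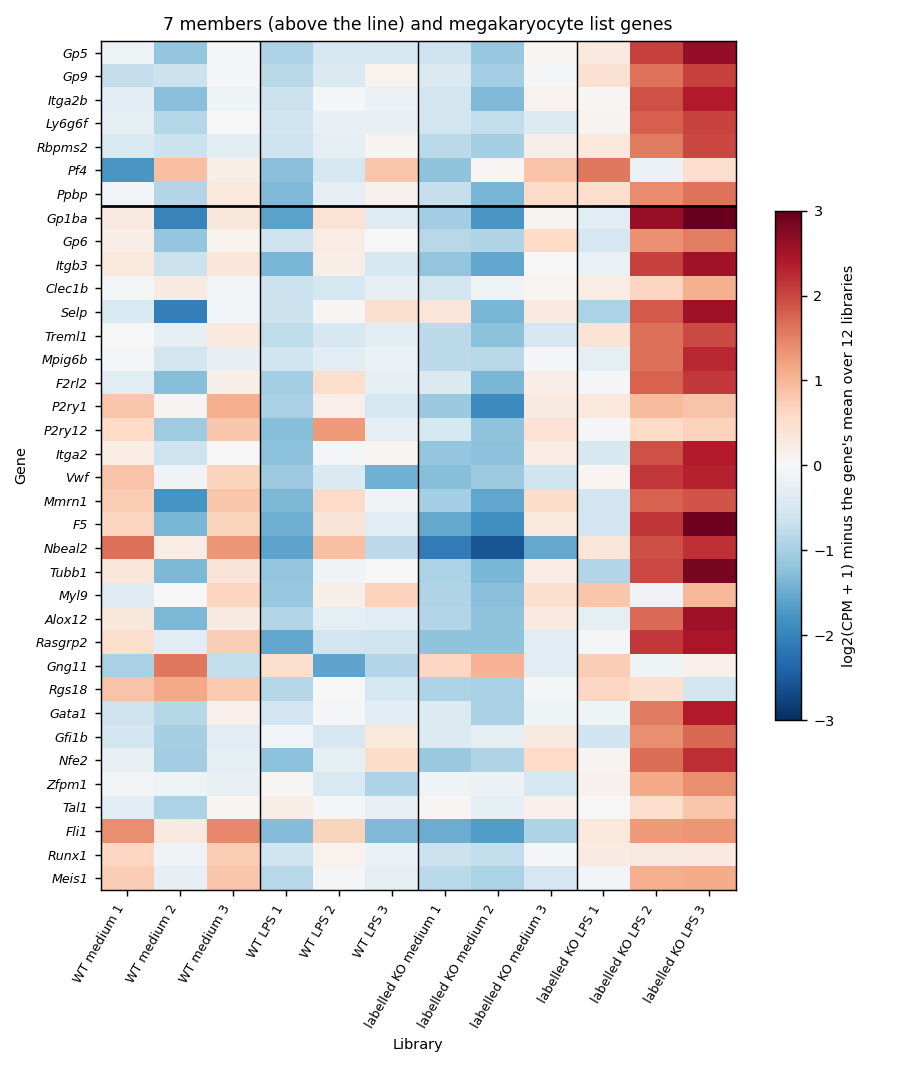
Log2(CPM + 1) minus the gene's mean over 12 libraries, for 7 members (above the line) and the list genes except 1 that is not reported, with libraries in columns and colours that saturate at 3. The columns of labelled KO LPS 2 and 3 are red in most rows, and Pf4, Gng11, Rgs18 and Fli1 are among the rows that differ.

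Several list genes moved between the other groups, with 26.3% of all genes called between labelled KO and WT in medium. In medium, the log2 fold of Nbeal2 in labelled KO over WT was -2.57 ± 0.62 (lower, edgeR, adjusted p = 0.0104). Fli1, an ETS factor of megakaryocytes and other blood cells, was lower by -1.67 ± 0.48 (edgeR, adjusted p = 0.0234), a call lost without WT medium 1 or 3 or labelled KO medium 1 or 2, with adjusted p of at most 0.0773. Its levels were 103, 46.6 and 108 CPM in WT medium and 13.2, 11.5 and 20.0 in labelled KO medium. Tal1, a basic helix-loop-helix factor of the blood lineages, was higher by 1.20 ± 0.30 (edgeR, adjusted p = 0.0132), lost without WT medium 1 (0.0501, over a range of 0.00122 to 0.412). Scaling by library size alone gave 0 higher and 6 lower in place of 1 higher and 2 lower. Over all 13773 genes it called 1070 higher and 5574 lower.

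Between LPS and medium in WT, Tal1 was the only gene of the list that passed, at 1.01 ± 0.30 (edgeR, adjusted p = 0.0372), from 10.6 to 13.6 CPM, against 18.3% of all genes. It was lost in 8 of 12 fits without 1 library (adjusted p from 0.0261 to 0.135): those without any WT medium library, WT LPS 1 or 3, labelled KO medium 1 or 2, or labelled KO LPS 2. Scaling by library size alone gave 0 higher and 2 lower in its place, with 1033 higher and 3200 lower over all 13773 genes. The list's median was 0.15 there and 0.07 between labelled KO and WT in medium. For the difference between the LPS effects of the labelled genotypes, 6 of 30 passed as higher and 1 as lower, against 41.1% of all genes. In the diagonal comparisons none of 30 passed. Labelled KO medium against WT LPS had a median of -0.03 and 1 gene with an unadjusted p under 0.05, and DESeq2 called none. Labelled KO LPS against WT medium had a median of 1.60 and 19 such genes, DESeq2 called 2, and edgeR called 12 without labelled KO LPS 1. Over all 13773 genes, 1135 had such a p, and DESeq2 called 36 higher and 4 lower. Without labelled KO LPS 1, edgeR called 140 higher and 105 lower of 14257.

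Transcripts of several other marrow lineages were also high in labelled KO LPS 2 and 3, to different degrees. Summed over 10 neutrophil genes, the level was 5663 and 6898 CPM in labelled KO LPS 2 and 3, 1103 in labelled KO LPS 1, and 829 to 4376 in the other groups. Both libraries were above the other 10 in 8 of these genes, a pattern held by 16.3% of all genes kept by the filter. For 8 B cell genes the sums were 315, 418 and 57.1 CPM, against 14.8 to 115 elsewhere, with 7 genes in that order. For 7 stem and progenitor genes they were 58.0, 80.8 and 9.47 CPM, against 4.75 to 19.4, with 4 genes in that order. Meis1 is in this list as well as in the megakaryocyte list.

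Mast cell and basophil genes (10 listed) summed to 160, 340.5 and 14.8 CPM in labelled KO LPS 2, 3 and 1 and to 13.2 to 162.5 elsewhere, with 6 in that order. The sums of 7 T and NK cell genes were 158, 216.5 and 11.3 CPM against 4.45 to 90.5, with only 2 in that order. Endothelial genes, which matter for Vwf, summed to 73.1 and 129 CPM in the same libraries and to 10.7 to 117 in the others. Of these 6 genes, 3 were in that order. Stromal genes were not higher there, at 29.5 and 48.9 CPM against 31.8 to 266.

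Erythroid genes, the lineage closest to megakaryocytes, were low and also highest in these libraries, with sums of 10.5 and 11.8 CPM in labelled KO LPS 2 and 3, 2.97 in labelled KO LPS 1 and 1.28 to 9.07 in the other groups. Of the 10 such genes found in the table, 2 to 6 were at 0 in each library, Car1 had no count in any, and Slc4a1 had at most 1. Only 1 of the 10 had both labelled KO LPS 2 and 3 above all other libraries. Most of the erythroid sum in labelled KO LPS 2 and 3 came from Epor, with 131 and 184 counts. Macrophage genes summed to 34430 and 22630 CPM in the same libraries, within the 10060 to 35760 of the others. Whether these other lineages have a part in the members' levels was not tested.

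Xist, the transcript of the inactive X chromosome, was at 191 and 95.2 CPM in labelled KO LPS 2 and 3, at 437 to 634 CPM in WT medium 1 and 3 and WT LPS 2, and at most 0.306 CPM in the other 7 libraries. The Y-linked genes Ddx3y, Eif2s3y, Kdm5d and Uty summed to at most 0.0512 CPM in the Xist-high libraries. In the other 7 they summed to 59.5 to 107 CPM. Libraries of female and of male mice differ in this way. Among the libraries labelled KO, only KO LPS 2 and 3 were Xist-high, so sex and their other differences cannot be told apart there. With Xist above 50 CPM as a covariate, 5 list genes were higher in labelled KO than in WT libraries under LPS, in place of 6. Over all 13773 genes, 2054 were then higher and 2402 lower, in place of 1435 and 1889. Between labelled KO LPS and labelled KO medium, 4 list genes were higher in place of 10. There, 1662 of all genes were higher and 2015 lower, in place of 2082 and 2104. The covariate took the list's median log2 fold from 1.29 to 0.85 and from 1.45 to 0.49 in these comparisons, and from 0.15 to 0.91 for LPS in WT and 0.07 to 1.12 between labelled KO and WT in medium. Its part in the result was not otherwise tested.

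**Figure D5:**
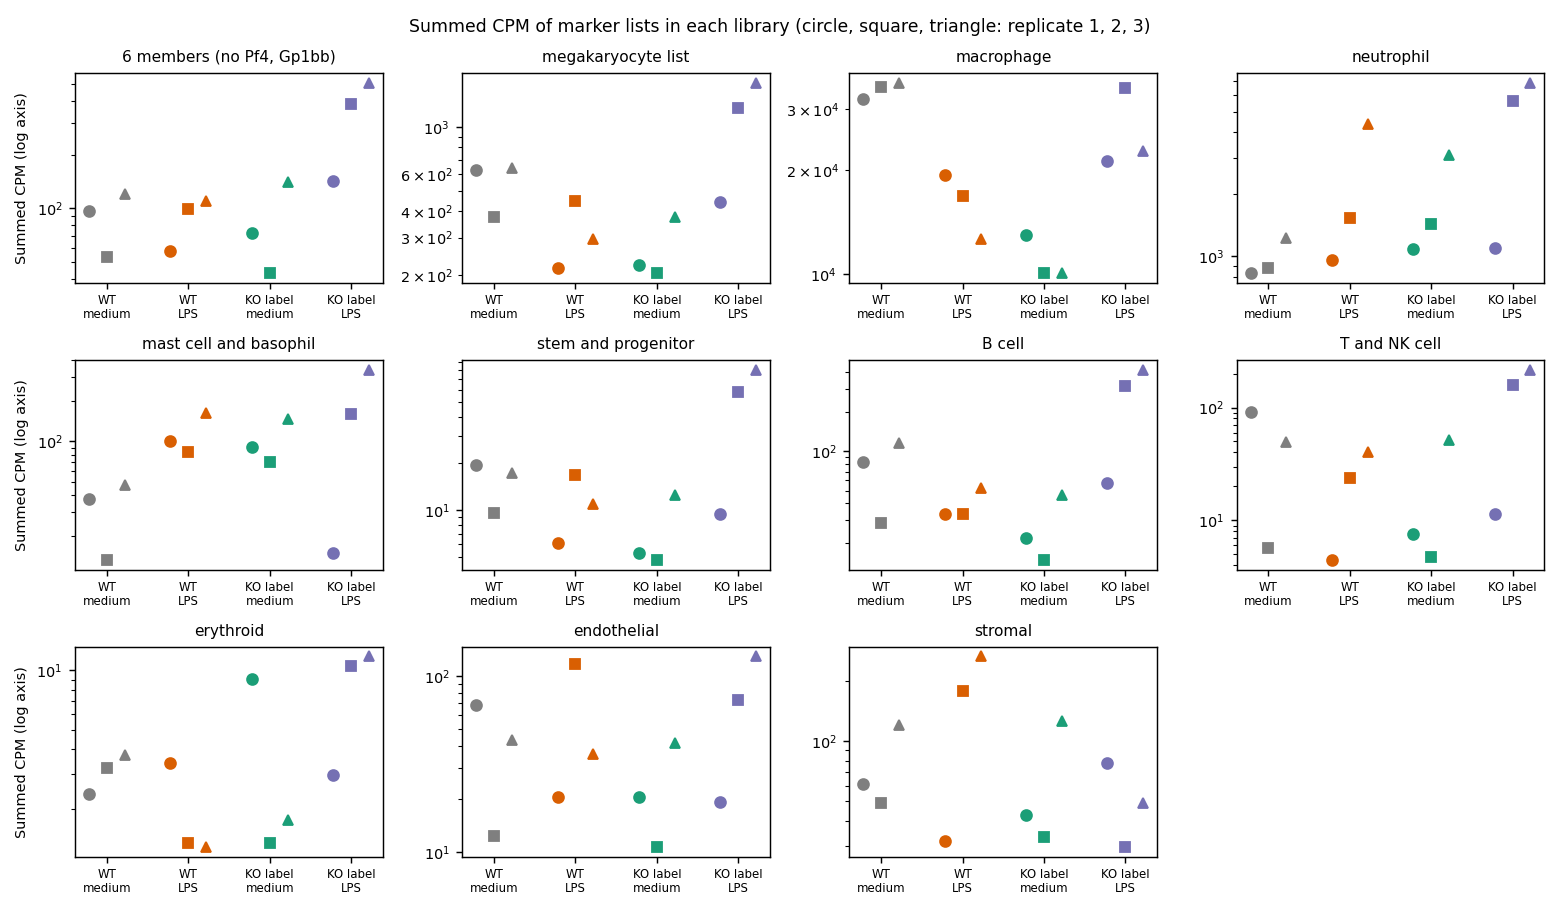
Summed CPM (log axis) of 6 members, the megakaryocyte list and 9 marker lists in each library, by group, with circles, squares and triangles for replicates 1, 2 and 3. The square and triangle of labelled KO LPS are the highest points for the members (387 and 506 CPM), the megakaryocyte, neutrophil, B cell, progenitor, T and NK cell and erythroid lists, and not for macrophage or stromal genes.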

How the data were processed

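Gene counts were used as the authors deposited them, whole numbers with no normalization. A second deposited table holds FPKM made from those counts, within 0.523% per library for genes above 1000 mean counts, and was used for levels per length. The build was mm10, per the submitters' processing notes; aligner, counter and strand setting are not given in the sources at hand, and the labels name both a TruSeq and a KAPA Stranded kit, so overlapping genes are uncertain. Positions come from GENCODE M21, promoters from RefSeq GRCm38.p6.

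Counts were fitted with edgeR 4.0.16 in R 4.3.3 (TMM factors 0.703 to 1.46, filterByExpr, quasi-likelihood test, 1 mean per group over 12 libraries, Benjamini-Hochberg, threshold 0.05). Standard errors come from the F statistic. The fit was tested on simulated data. Levels are not TMM-scaled, folds are. In each comparison the 4 called list genes of smallest p per direction are named, with Gp1ba, Gp6, Itgb3, Vwf, Tubb1, Gata1, Gfi1b, Nlrc3, Nos2, Il6 and Il1b, and the 3 genes most like each member; 1 list gene is counted but not reported here by name. Members, lists and tests were chosen with earlier results of these data known. Alternatives were DESeq2 1.42.0, library size scaling, no filter, only the groups compared, a replicate block, leaving out each library, another pseudocount (0.25 for 1) and TMM-scaled CPM; leaving out labelled KO LPS 2 and 3, and a Xist covariate, were chosen after seeing the data.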

Additional observations from a re-analysis of the deposited data

Results flagged for a closer look

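The effect of LPS, as labelled, differed between the libraries labelled KO and WT for 7 of the 30 megakaryocyte list genes, by the interaction term in edgeR (quasi-likelihood, Benjamini-Hochberg). Values are the LPS effect in labelled KO minus that in WT. Nbeal2 differed by 4.02 ± 0.86 on the log2 scale (adjusted p = 0.00288), Vwf by 2.99 ± 0.66 (0.0037), Rasgrp2 by 2.86 ± 0.76 (0.00995) and Fli1 by 2.67 ± 0.67 (0.00727). Meis1 differed by 2.56 ± 0.78 (0.0204), a call lost without WT medium 1, labelled KO LPS 2 or labelled KO LPS 3 (adjusted p at most 0.0529). Treml1 differed by 1.88 ± 0.56 (0.0177), lost without labelled KO LPS 3 (0.0518, over a range of 0.000868 to 0.343). Tal1 differed the other way, by -1.20 ± 0.42 (0.0392), lost in 7 of 12 fits without 1 library, with adjusted p from 0.0324 to 0.0956: those without WT medium 1 or 2, WT LPS 1, labelled KO medium 1 or 3, or labelled KO LPS 1 or 2. Scaling by library size alone gave 17 higher and 0 lower in place of 6 higher and 1 lower. Over all 13773 genes it called 6597 higher and 1538 lower, with an all-gene median of 1.43. Without labelled KO LPS 2 and 3, the list's median was -0.56, against 0.03 for all genes. The Xist covariate took the list's median from 1.26 to 0.01. In the main fit the interaction called 41.1% of all genes, in libraries where Nlrc3 and Nos2 go against the KO labels.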

How the results depend on the processing

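Of 924 member folds under alternatives, 866 were marked as the same, 56 as moved by more than the replicate SD and 2 as reversed. The 2 are Itga2b without labelled KO LPS 2 and 3, at -0.17 both under LPS and for LPS in the labelled KO libraries. By sign alone, a separate tally, 867 of 924 kept that of the main fit, so more folds than these turned. Among them are Gp5 and Ppbp for LPS in WT, at -0.31 and -0.24 by library size, and every member's interaction value without labelled KO LPS 2 and 3. The median correlation of the members was 0.919, and 0.931 and 0.918 under the other pseudocount and scaling.

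Counts of list genes called, in either direction, moved by over 1.5 times as follows. Calls over all genes moved as well. They are given as higher and lower, of 13773 unless stated. For LPS in WT (1 called) they were 2 by library size, 0 with no filter, 0 on the groups compared and 4 with the Xist covariate. Of all genes, 1033 and 3200 were called by library size and 1628 and 1019 of 27062 with no filter. On the groups compared 1123 and 467 of 13040 were called, and with the covariate 2073 and 1463. For labelled KO against WT under LPS (6) they were 10 by DESeq2, 12 by library size, 13 with no filter and 3 on the groups compared. Of all genes, 2004 and 2365 were called by DESeq2 and 3487 and 1194 by library size. With no filter 1501 and 1946 of 27062 were called, and on the groups compared 806 and 1379 of 12995. Without labelled KO LPS 2 and 3 the list's median log2 fold there was -0.22. In medium (3) they were 6 by library size, all lower, and 6 with the Xist covariate, 4 higher and 2 lower. Of all genes, 1070 and 5574 were called by library size and 1893 and 1429 with the covariate. For LPS in labelled KO (10) they were 18 by library size, 17 with no filter and 4 with the Xist covariate. Of all genes, 5317 and 1177 were called by library size and 2181 and 2100 of 27062 with no filter. With the covariate 1662 and 2015 were called. Without labelled KO LPS 2 and 3 the list's median log2 fold there was -0.26. For labelled KO LPS against WT medium (0) they were 2 by DESeq2 and 8 with no filter. Of all genes, 36 and 4 were called by DESeq2 and 95 and 4 of 27062 with no filter. For the interaction (7) they were 17 by library size and 4 with the Xist covariate. Of all genes, 6597 and 1538 were called by library size and 2647 and 2738 with the covariate. Without labelled KO LPS 2 and 3 the list's median interaction value was -0.56. The cause was not tested.

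Leaving out 1 library gave 0 to 3 for LPS in WT, 3 to 17 under LPS, 1 to 5 in medium, 3 to 17 for LPS in labelled KO, 0 to 12 for labelled KO LPS against WT medium, 0 to 0 for labelled KO medium against WT LPS, and 5 to 10 for the interaction. In medium the count was 5 without WT medium 2 and 1 without WT medium 1, for LPS in WT 0 without WT medium 1 and 3 without labelled KO LPS 1. Calls over all genes moved too. In medium they were 2441 higher and 2294 lower of 14215, and 1339 and 857 of 14220, in that order. For LPS in WT they were 1099 and 394 of 14220, and 1834 and 1080 of 14257.

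Titles give the groups the same replicate numbers. Same-numbered libraries did not deviate together in every pair (correlations from -0.63 to 0.567), so these numbers were not taken to pair them. Sample codes in the labels share numbers between WT medium 2 and WT LPS 1 and between WT medium 3 and WT LPS 2, and whether those mark shared animals is not said; they were not used. With the replicate number as a block, the counts were 4 under LPS, 8 for LPS in labelled KO, 3 in medium, 1 for LPS in WT and 7 for the interaction. Over all 13773 genes they were 1210 higher and 1688 lower under LPS and 1754 and 1866 for LPS in labelled KO. In medium they were 1748 and 1416, for LPS in WT 1444 and 695, and for the interaction 2633 and 2652. Depth limits Gp1bb and Ly6g6f most, at 0 to 4 and 5 to 173 counts.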
